A study of Drosophila melanogaster with 34 samples.

Results

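Sites of Crooked legs (Crol) in cultured S2 cells were set against sites of Combgap (Cg) in wild-type (WT) larvae, where Cg was mapped in brains and imaginal discs. The comparison took the whole peak list of each protein on chromosomes X and 4 and the arms 2L, 2R, 3L and 3R. It comprised 9593 S2 Crol peaks and 8938 WT Cg peaks, 18531 of the 47852 peaks in the 5 lists of the series. A peak was matched when it shared at least 1 bp with a peak of the other list, and the share was read in both directions.

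Crol carries an array of C2H2 zinc fingers with a preference for runs of G, and Cg is a zinc finger protein that binds Polycomb response elements (PREs). PREs are the DNA elements at which Polycomb group proteins assemble in Drosophila, and a PRE usually carries sites for several DNA-binding proteins. The PRC1 subunit Polyhomeotic (Ph) has been linked to Cg at such elements, and Cg is also found at many regions outside Polycomb domains. S2 is a Drosophila line derived from embryonic cells, whereas brains and discs hold many cell types.

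The S2 Crol libraries came from wild-type S2 cells and the antibody CrolN, raised against residues 1 to 188 of Crol isoform A. The WT Cg libraries came from brains and discs dissected from wild-type 3rd instar larvae, 10 larvae per sample, and an anti-Cg antibody of an earlier study. Side lists were Crol in WT brains and discs (CrolN, 10139 peaks), Crol in brains and discs of larvae with a crol knockout (crol-KO, CrolN, 9883 peaks) and Cg in the same crol-KO tissues (9299 peaks). The crol-KO larvae still held some Crol protein in the immunoblots of the study, so they are not a Crol-free reference. The S2 samples carry a tissue entry of discs and brains in their labels while their titles name S2 cells, and the titles were followed. A peak list cannot show the markers of a tissue, so neither label could be checked that way. The single S2 input is marked in its title as re-used. Labels of the series also name another CrolN group and a CrolC group from WT brains and discs, which were not used here. Lacking WT Crol below refers only to the WT Crol list used.

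Every list was called on reads pooled over 2 libraries, so there was 1 list per group, no spread between replicates could be computed, and no comparison below has a test. Each share carries its exact 95% interval (Clopper-Pearson), and each median a 95% interval from its order statistics. These cover counting error only, and neighbouring peaks are not independent. The background that the peak caller wrote into the lists implied 5.77 M scaled reads for S2 Crol and 3.42 M for WT Cg. The median summit stood on a pileup of 102 reads in S2 Crol and 56 reads in WT Cg, so weak sites were counted less finely in the Cg list. The larval Crol lists were also shallower than S2 Crol, at 4.24 M scaled reads in WT and 4.89 M in crol-KO. Their median summit pileups were 62 and 74 reads. Fold enrichment, the pileup at the summit over the local background with 1 added to each, was therefore ranked within a list and was not compared between lists as an absolute level. The S2 Crol and WT Cg lists thus differed in protein, antibody, cell source, input and depth at once, and these cannot be told apart.

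More than 5 in 10 peaks of either list had a partner in the other. A WT Cg peak lay at 5641 of 9593 S2 Crol peaks (58.8%, 95% interval 57.8 to 59.8%), and an S2 Crol peak lay at 5956 of 8938 WT Cg peaks (66.6%, 65.6 to 67.6%). The WT Cg peaks covered 4.55% of the arm length spanned by peaks, and 5353 S2 Crol summits (55.8%, 54.8 to 56.8%) fell inside one. The S2 Crol peaks covered 6.54%, and 5838 WT Cg summits (65.3%, 64.3 to 66.3%) fell inside one. The shared sequence came to 3.55 Mb, which was 45.2% of the S2 Crol bases and 64.9% of the WT Cg bases.

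The share of S2 Crol peaks at larval Cg peaks stood beside the share at larval peaks of Crol itself. S2 Crol peaks overlapped a WT Crol peak in 5584 cases (58.2%, 57.2 to 59.2%). This share and that with WT Cg are over the same 9593 peaks, of which 637 met WT Cg alone and 580 met WT Crol alone. Seen from the larval lists, S2 Crol was present at 66.6% of WT Cg peaks and at 58.4% (57.4 to 59.4%) of WT Crol peaks. Within the larval tissue, 75.8% (75.0 to 76.6%) of WT Crol peaks met WT Cg. The crol-KO Cg list was longer, with 9299 peaks against 8938 in WT. A crol-KO Cg peak lay at 62.1% (61.2 to 63.1%) of S2 Crol peaks, above the 58.8% (57.8 to 59.8%) for WT Cg. In the other direction the values were close, with S2 Crol at 66.7% (65.7 to 67.7%) of crol-KO Cg peaks.

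Partners were mostly single. Among the S2 Crol peaks with Cg, 5303 overlapped 1 WT Cg peak and 338 overlapped 2 or more. Among the WT Cg peaks with S2 Crol, 5898 overlapped 1 S2 Crol peak and 58 overlapped 2 or more. The S2 Crol peak with the most partners, at 2L:246557-251360, was 4804 bp wide, had a fold enrichment of 28.0 (rank 9 of its list) and spanned 5 WT Cg peaks. Fold enrichments of those 5 Cg peaks were 2.69, 4.54, 4.68, 3.42 and 6.27, and each of them also overlapped a WT Crol peak. The S2 summit lay 19 bp from the summit of the central Cg peak and 2580 bp from that of the strongest. The reverse case was the WT Cg peak at X:548158-550729, 2572 bp wide with a fold enrichment of 7.23, which took in 3 S2 Crol peaks.

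Overlap was more frequent among the stronger peaks of both lists, which were split into deciles of fold enrichment. Of the S2 Crol peaks in the lowest decile, 17.8% (15.4 to 20.4%) had a WT Cg peak, against 79.6% (76.9 to 82.1%) of the highest decile. Most of that difference fell in the lower 6 deciles, up to 71.7% (68.8 to 74.6%), and the upper 4 deciles lay between 73.5 and 79.6%. In the WT Cg list the share with S2 Crol was 38.1% (34.9 to 41.4%) in the lowest decile and 90.1% (88.0 to 92.0%) in the highest, with each decile above the one before it. In the highest decile, about 1 in 5 S2 Crol peaks thus had no larval Cg peak, and about 1 in 10 larval Cg peaks had no S2 Crol peak.

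**Figure D1:**
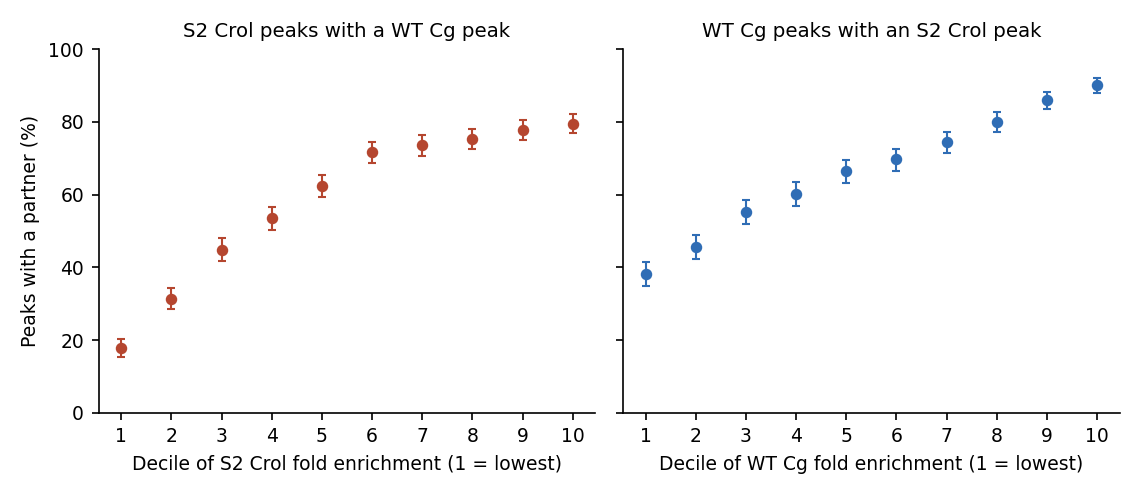
Share of S2 Crol peaks with a WT Cg peak (left, in percent, by decile of S2 Crol fold enrichment) and of WT Cg peaks with an S2 Crol peak (right, by decile of WT Cg fold enrichment); bars are exact 95% binomial intervals. The S2 Crol share levels off above the 6th decile, at 73.5 to 79.6%, while the WT Cg share goes on to 90.1% in the highest decile.

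Peaks with a partner were also stronger and wider than peaks without. S2 Crol peaks with WT Cg had a median fold enrichment of 5.53 (quartiles 4.02 and 7.90) and a median width of 690 bp (514 and 1099 bp), and those without WT Cg had 3.47 (2.66 and 5.09) and 529 bp (408 and 795 bp). WT Cg peaks with S2 Crol had a median fold enrichment of 4.01 (3.16 and 5.16) and a median width of 537 bp (436 and 756 bp), against 3.07 (2.59 and 3.81) and 466 bp (374 and 599 bp) without. The quartile ranges overlapped in all of these pairs.

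Width and overlap moved together, as they must in part when 1 bp is enough. Of the 1302 S2 Crol peaks of 300 to 400 bp, 29.9% (27.4 to 32.4%) had a WT Cg peak, and of the 421 wider than 2000 bp, 82.7% (78.7 to 86.2%) did. Median fold enrichment was 2.64 in the narrow class and 9.99 in the wide one, so width and strength were not separate. At least 2 WT Cg peaks lay under 34.9% of the S2 Crol peaks wider than 2000 bp and under none of those up to 600 bp. Where both peaks had 1 partner each (5196 pairs), the S2 Crol peak was the wider in 3858 pairs (74.2%), with median widths of 664 bp for S2 Crol and 530 bp for WT Cg and a median ratio of 1.19.

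In these 5196 pairs the fold enrichment of S2 Crol was ranked in loose accord with that of WT Cg, with a Spearman rho of 0.39. WT Crol and WT Cg, which come from the same tissue, gave 0.53 over 7237 such pairs, and S2 Crol with WT Crol, the same antibody, gave 0.51 over 5090. These are descriptions across peaks within single lists, and the pairs share the local sequence and the backgrounds of their lists.

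Summits of matched peaks lay close together. Over the 6015 overlapping pairs, the S2 Crol summit was a median of 46 bp (44 to 48 bp) from the WT Cg summit, with quartiles of 18 and 131 bp. The summits were within 50 bp in 52.7% of pairs, within 100 bp in 70.2% and within 200 bp in 81.0%, and 44 pairs had both on the same base. The other pairings of lists had medians of 43 bp (41 to 45 bp) for S2 Crol with WT Crol and 44 bp (42 to 45 bp) for WT Crol with WT Cg. The pairings parted in the tail, since 81.0% of S2 Crol pairs with WT Cg and 81.8% of S2 Crol pairs with WT Crol were within 200 bp, against 88.1% of WT Crol pairs with WT Cg. These shares include peaks with several partners. Among the 5196 S2 Crol pairs with WT Cg that had 1 partner each, 87.7% were within 200 bp.

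The widths of 2 overlapping peaks bound the distance between their summits, so a split by width fixes part of the distances. Pairs whose S2 Crol peak was wider than 2000 bp had a median distance of 553 bp (363 to 673 bp), and 32.6% of these 531 pairs were over 1000 bp apart. Pairs in which neither peak was over 600 bp wide had a median distance of 27 bp (25 to 29 bp), and 92.1% of these 1872 pairs were within 100 bp. Distance and strength were related differently in the 2 lists. The median distance was 114 bp (93 to 146 bp) for the weakest decile of WT Cg peaks and 36 bp (33 to 39 bp) for the strongest, whereas in the S2 Crol list it was 69 bp (58 to 90 bp) for the weakest, 36 bp (33 to 42 bp) for the 6th decile and 90 bp (73 to 107 bp) for the strongest.

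**Figure D2:**
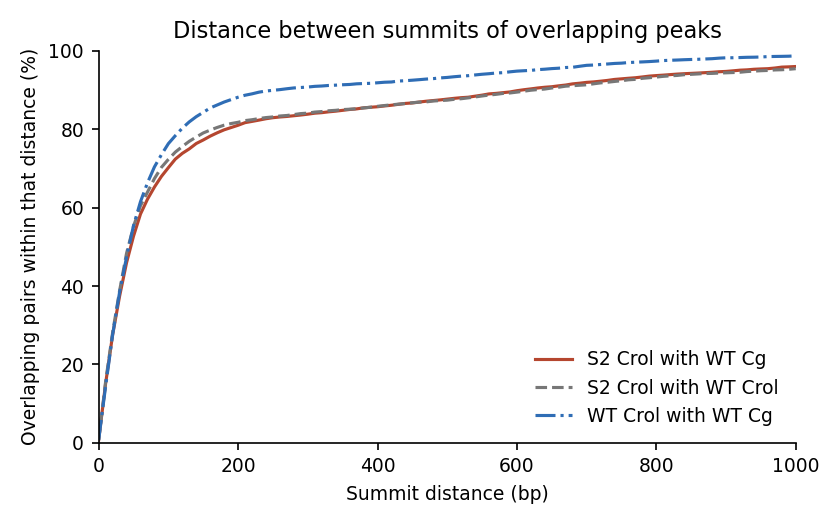
Share of overlapping pairs (percent) whose summits lie within the distance on the x axis (bp, up to 1000), for S2 Crol with WT Cg (6015 pairs), S2 Crol with WT Crol (5990) and WT Crol with WT Cg (7907). The curves run together up to about 50 bp, after which both S2 pairings stay below the larval pairing, at 81.0 and 81.8% against 88.1% within 200 bp.

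At 4332 places 1 S2 Crol peak, 1 WT Crol peak and 1 WT Cg peak overlapped one another with no other partner. There the S2 Crol summit was a median of 39.5 bp (38 to 41 bp) from the Cg summit and 36 bp (34 to 37 bp) from the larval Crol summit. The larval Crol and Cg summits were 36 bp (34 to 37 bp) apart. Distances within 200 bp made up 88.0% for S2 Crol to Cg, 90.4% for S2 Crol to larval Crol and 92.8% for larval Crol to Cg. The S2 Crol summit was nearer to that of WT Cg at 2014 places (46.5%) and nearer to that of WT Crol at 2264 (52.3%), with 54 ties. All 3 summits lay within 100 bp of one another at 2909 places (67.2%).

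The strongest S2 Crol peaks with WT Cg were at X:9476535-9480306, 3L:11700876-11702365 and 2R:11236701-11238000, with fold enrichments of 32.2, 31.9 and 29.3. Their strongest Cg partners had 5.50, 4.23 and 6.72, ranks 1317, 3144 and 501 of the Cg list, with summits 68, 75 and 44 bp away. At the S2 summits 495, 577 and 480 reads were piled up, and at those of the Cg partners 98, 72 and 125 reads.

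The strongest WT Cg peaks with S2 Crol were narrower and nearly congruent with their partners. They were at X:10234010-10234548, X:10196272-10196818 and 3R:12694843-12695543, had fold enrichments of 20.1, 19.2 and 14.6, and were the 3 highest of the whole Cg list. Their S2 Crol partners began within 10 bp of them, at 10234015, 10196274 and 12694834, and the summits were 5, 4 and 2 bp apart. S2 Crol fold enrichment at these places was 12.6, 4.28 and 17.4, ranks 481, 5360 and 141. All 6 of these strong sites also had peaks in the WT Crol, crol-KO Crol and crol-KO Cg lists.

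Peaks without a partner were often not near one either. Of the 3952 S2 Crol peaks without a WT Cg overlap, 830 (21.0%) had a Cg peak less than 1000 bp away, and the median distance to the nearest was 3063 bp (2894 to 3214 bp). Of the 2982 WT Cg peaks without S2 Crol, 461 (15.5%) had an S2 Crol peak less than 1000 bp away, and the median distance was 5377 bp (4991 to 5690 bp). More than 10 kb separated 644 (16.3%) of these S2 Crol peaks and 979 (32.8%) of these WT Cg peaks from the nearest peak of the other list.

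The highest S2 Crol peak of all was such a site. It lay at 3L:4413571-4416290, was 2720 bp wide and had a fold enrichment of 34.7 on a pileup of 569 reads, with no peak of any larval list on it and no WT Cg or WT Crol peak within 1000 bp. The next without Cg nearby, at 2L:13569555-13573105 and 2R:8896126-8897333, had fold enrichments of 26.1 and 25.7, overlapped WT Crol peaks and had no peak in either crol-KO list. In the other direction the strongest WT Cg peaks with no S2 Crol nearby, at 2L:20104470-20104993, 3R:11246247-11246748 and X:484414-485095, had fold enrichments of 9.94, 8.62 and 8.47. These Cg peaks, ranks 29, 100 and 112 of their list, overlapped peaks of the 3 other larval lists.

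Some unmatched peaks followed one another along the arms, and only the longest runs are given here. The run length to be expected from the unmatched shares was not worked out, so clustering was not tested. The longest run of neighbouring S2 Crol peaks with no WT Cg peak within 1000 bp held 19 peaks over 74316 bp at 2L:13066733-13141048. Their fold enrichments ran between 1.81 and 18.6, and the stretch held 2 WT Crol peaks, 3 crol-KO Crol peaks and no Cg peak of either genotype. The longest run of WT Cg peaks with no S2 Crol within 1000 bp also held 19 peaks, over 117039 bp at 2R:2381655-2498693, with fold enrichments between 2.03 and 7.90. That stretch had no S2 Crol peak and held 29 WT Crol, 17 crol-KO Crol and 15 crol-KO Cg peaks, so both proteins were called there in larvae. The longest run of WT Cg peaks that each had S2 Crol held 30 peaks over 361667 bp at 2L:6323392-6685058, where 46 S2 Crol and 34 WT Crol peaks were also called.

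The shares varied little between arms. On the 5 long arms, between 56.1% (3L and 2L) and 62.0% (2R) of S2 Crol peaks had WT Cg, and between 64.6% (3L) and 70.5% (2R) of WT Cg peaks had S2 Crol. The intervals for 2R, 59.8 to 64.2% of S2 Crol peaks and 68.3 to 72.6% of WT Cg peaks, lay above those for 3L, 53.9 to 58.3% and 62.4 to 66.8%. Chromosome 4, with 84 S2 Crol and 82 WT Cg peaks, had 67.9% (56.8 to 77.6%) and 72.0% (60.9 to 81.3%), too few to be placed apart from the other arms.

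Whether an S2 Crol peak met larval Cg followed closely whether it met larval Crol. Of the 4009 S2 Crol peaks without WT Crol, 15.9% (14.8 to 17.1%) had WT Cg, against 89.6% (88.8 to 90.4%) of the 5584 with WT Crol. Sorted by both larval lists, 5004 S2 Crol peaks had Cg and Crol, 637 had Cg alone, 580 had Crol alone and 3372 had neither. Those with both were the strongest, with a median fold enrichment of 5.88 and a median width of 729 bp. Those with Crol alone had 4.57 and 577.5 bp. Those with Cg alone had 3.57 and 491 bp, close to the 3.32 and 522 bp of the peaks with neither.

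**Figure D3:**
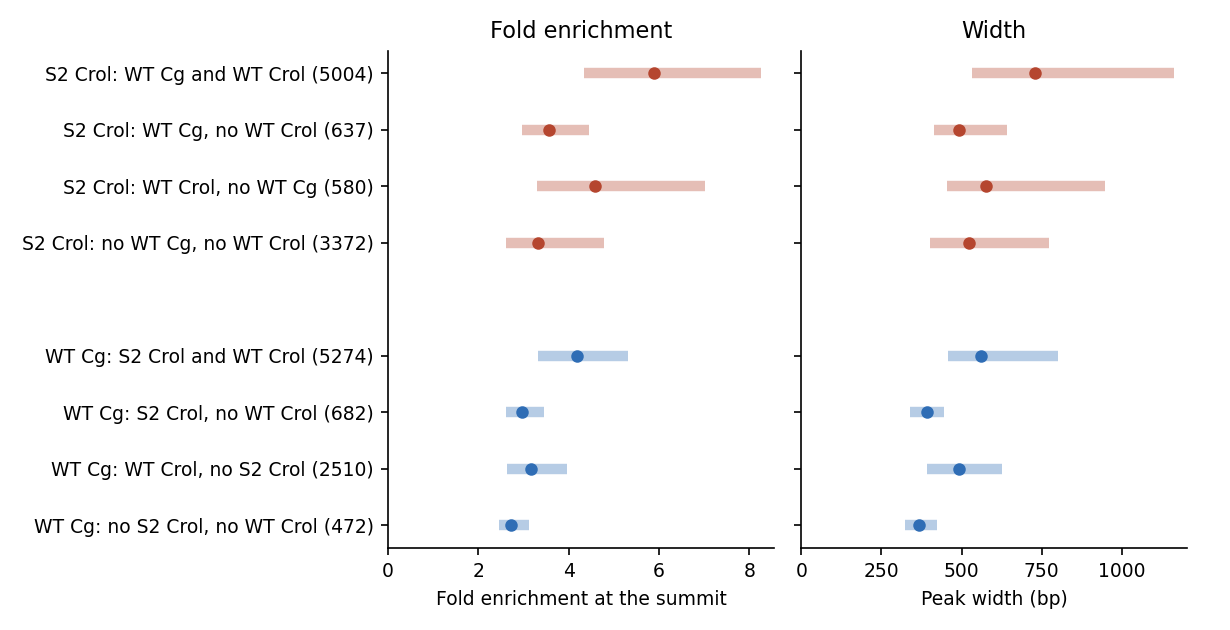
Fold enrichment at the summit (left) and peak width in bp (right) for S2 Crol peaks sorted by WT Cg and WT Crol (upper 4 rows) and WT Cg peaks sorted by S2 Crol and WT Crol (lower 4 rows), with the number of peaks in brackets. Points are medians and bars run between the quartiles; in both lists the peaks shared by all 3 stand highest, at medians of 5.88 for S2 Crol and 4.19 for WT Cg.

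The same sorting of the WT Cg list gave 5274 peaks with S2 and larval Crol, 682 with S2 Crol alone, 2510 with larval Crol alone and 472 with neither. Median fold enrichment was 4.19, 2.96, 3.17 and 2.73 in that order, and median width was 562, 391, 493 and 368.5 bp. Larval Crol was present at 88.5% (87.7 to 89.3%) of WT Cg peaks with S2 Crol and at 84.2% (82.8 to 85.5%) of WT Cg peaks without. Over all WT Cg peaks the share was 87.1% (86.4 to 87.8%).

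The S2 Crol peaks at larval Cg peaks that lacked larval Crol numbered 683, which was 12.1% (11.3 to 13.0%) of the 5641 S2 Crol peaks with Cg. At 636 of them (11.3% of the 5641, 10.5 to 12.1%) every Cg peak met lacked WT Crol, and the other 47 also met a Cg peak that had it. Of the 683, a WT Crol peak overlapped the S2 Crol peak itself, beside the Cg peak, in 52 cases (7.61%). Another 518 of the 683 (75.8%, 72.5 to 79.0%) were more than 1000 bp from any WT Crol peak. Their summits were close to those of Cg, with a median distance of 42 bp (38 to 46 bp) over 685 pairs, beside 47 bp (45 to 49 bp) for pairs whose Cg peak had WT Crol.

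These 683 peaks were weak members of the S2 list. Their median fold enrichment was 3.73 (quartiles 3.04 and 4.74), and 73.1% of them stood in the lower 5 deciles of S2 Crol fold enrichment, against 5.87 and 30.4% for the 5005 S2 Crol peaks at Cg peaks with WT Crol. The 682 Cg peaks under them were weak too, at a median fold enrichment of 2.96 (2.62 and 3.44) and a median width of 391 bp (340 and 446 bp), and 82.3% stood in the lower 5 deciles of the Cg list.

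The crol-KO lists, from other libraries of the same tissues and antibodies, held most of these places. They held a smaller part of them than of the S2 Crol peaks with both WT Cg and WT Crol. Of the 683 S2 Crol peaks, 475 (69.5%, 65.9 to 73.0%) overlapped a Crol peak of the crol-KO list and 580 (84.9%, 82.0 to 87.5%) a Cg peak of the crol-KO list. Both were present at 448 and neither at 76 (11.1%, 8.87 to 13.7%), counts that have no share over the whole S2 Crol list beside them. In the whole S2 Crol list these shares were 62.0% for crol-KO Crol and 62.1% for crol-KO Cg, and among the 5004 with WT Cg and WT Crol both shares were 97.2%. Among the 637 with WT Cg and no WT Crol of their own, 67.3% (63.6 to 71.0%) overlapped a crol-KO Crol peak.

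Of the 5 strongest of the 683, 3 also met a Cg peak with WT Crol. The first, at 3L:3416535-3419212, had a fold enrichment of 19.4 on 930 reads. It spanned a Cg peak with WT Crol 4 bp from its summit (fold enrichment 4.60) and a Cg peak without, 1262 bp away at 3L:3417078-3417497 (3.51). The peak at 2R:7089073-7093055 (18.0) was alike, with Cg peaks 99 bp away with WT Crol and 2111 bp away without. That at 3R:731455-732528 (11.8) had its Cg peak with WT Crol 5 bp away and the other 632 bp away.

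The remaining leading sites had no Cg peak with WT Crol. At 3L:11548645-11550642 the S2 Crol peak had a fold enrichment of 18.9 and 291 reads at the summit, and the single Cg peak, at 11550358-11550741, had 2.30 and 31 reads with a summit 1008 bp away. That S2 peak lay just past the end of a run of 11 S2 Crol peaks without Cg, at 3L:11519744-11548179. At 3R:21829979-21830949 (11.3) the Cg summit was 53 bp away, and the site had a crol-KO Crol peak and no crol-KO Cg peak.

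With no WT Crol peak within 1000 bp, the leaders after the site at 3L:11548645-11550642 were 2R:6430456-6431287 and 3L:9342205-9343077, with S2 Crol fold enrichments of 9.83 and 9.55. The site on 2R was the exception in strength on the Cg side. Its Cg peak at 6430503-6431161 had a fold enrichment of 6.91 (rank 425) on 135 reads, with the S2 Crol summit 67 bp away on 556 reads, and no larval Crol peak was called there in WT although one was called in crol-KO. The Cg peak of the site on 3L had a fold enrichment of 2.76 (rank 7133) on 29 reads, 38 bp from the S2 Crol summit. Each of these 3 places had peaks in both crol-KO lists.

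Over the whole list, WT Cg peaks without larval Crol had S2 Crol less often than those with it, but they were also weaker. S2 Crol was present at 682 of the 1154 WT Cg peaks without WT Crol (59.1%, 56.2 to 62.0%) and at 5274 of the 7784 with WT Crol (67.8%, 66.7 to 68.8%). Within deciles of Cg fold enrichment the order depended on how peaks were chosen and matched. With a 1 bp overlap the share was higher without WT Crol in 7 of the 10 deciles and lower in 3, and the intervals were apart in 1 decile, the 2nd, at 53.5% (47.0 to 59.8%) without WT Crol and 42.7% (38.8 to 46.6%) with it. With the deciles weighted as in the 1154 peaks without WT Crol, the share came to 59.1% for them and to 52.6% for peaks with WT Crol. That order turned round, to 34.5 and 37.5%, when 50% of both peaks had to overlap, to 44.4 and 48.4% with 200 bp on either side of each summit, and to 43.3 and 58.2% for the 5000 strongest peaks of each list. Above the 8th decile only 14 Cg peaks lacked WT Crol, and 11 of these had S2 Crol.

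**Figure D4:**
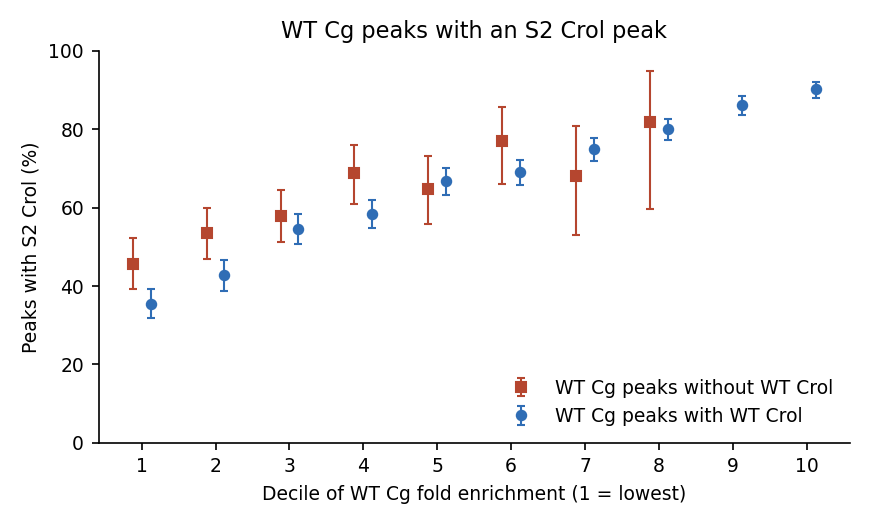
Share of WT Cg peaks with an S2 Crol peak (percent) by decile of WT Cg fold enrichment, for Cg peaks without WT Crol (squares, deciles with at least 20 peaks) and with WT Crol (circles); bars are exact 95% binomial intervals. At this 1 bp overlap the squares lie above the circles in the lowest 4 deciles, for example at 45.6 against 35.4% in the lowest, an order that turns round over all deciles under 3 of the 6 other settings.

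Among the WT Cg peaks without WT Crol, the 705 with a Crol peak in the crol-KO list had S2 Crol in 65.7% (62.0 to 69.2%) of cases, and the 449 with no Crol in either larval list had it in 48.8% (44.1 to 53.5%). These 2 intervals were apart, beside a share of 66.6% over all WT Cg peaks. The 2 groups were not compared in strength or width or read within deciles. The share with S2 Crol rose with Cg fold enrichment, so the part of strength in this gap was not tested. Even where neither larval Crol list had a peak, 219 WT Cg peaks thus coincided with Crol of S2 cells.

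WT Cg peaks with S2 Crol were more often called again as Cg peaks in crol-KO larvae. Of all WT Cg peaks, 89.4% had a crol-KO Cg peak. The share was 95.4% (94.9 to 96.0%) of the 5956 with S2 Crol and 77.5% (75.9 to 79.0%) of the 2982 without. As those with S2 Crol were stronger, the shares were also read within deciles of Cg fold enrichment, where they were higher with S2 Crol in 10 of 10 and the intervals were apart in 7. In the lowest decile 78.6% (73.9 to 82.8%) of Cg peaks with S2 Crol were called in crol-KO, against 52.8% (48.5 to 57.0%) without, and in the highest the values were 99.9 and 98.9%. With the deciles weighted as in the peaks with S2 Crol, the share was 95.4% with S2 Crol and 88.1% without, and it stayed higher with S2 Crol under the 6 other settings tried, by 7.34 to 11.1 percentage points. Peaks with S2 Crol were also wider, and the part of width in this was not tested.

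**Figure D5:**
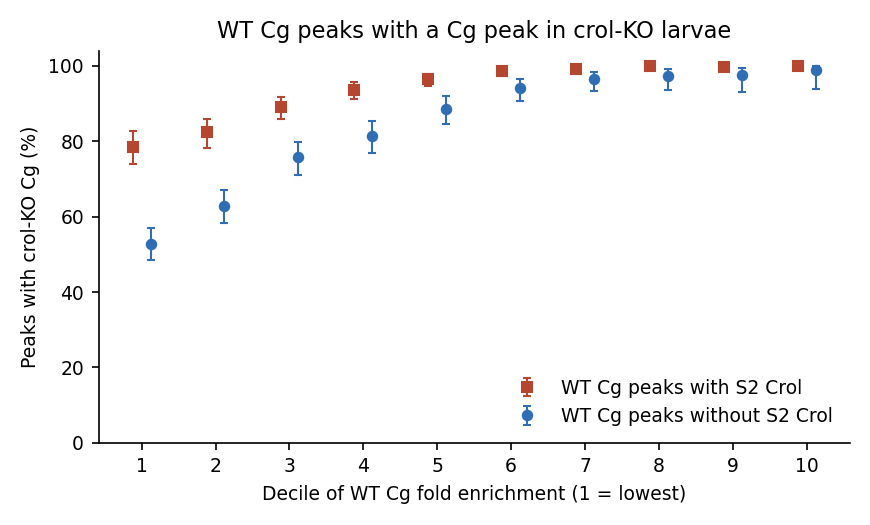
Share of WT Cg peaks with a Cg peak in crol-KO larvae (percent) by decile of WT Cg fold enrichment, for Cg peaks with S2 Crol (squares) and without S2 Crol (circles); bars are exact 95% binomial intervals. The squares lie above the circles in each decile, by most in the lowest (78.6 against 52.8%), and both approach 100% in the highest.

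Split by both Crol lists, crol-KO larvae had a Cg peak at 96.9% (96.4 to 97.4%) of WT Cg peaks with S2 and larval Crol, 84.2% (81.2 to 86.8%) of those with S2 Crol alone, 80.5% (78.9 to 82.1%) of those with larval Crol alone and 61.2% (56.7 to 65.6%) of those with neither. S2 Crol alone and larval Crol alone had overlapping intervals, although the median fold enrichment of Cg was lower with S2 Crol alone (2.96) than with larval Crol alone (3.17). The S2 Crol peaks with no WT larval peak of either protein were rarely met in crol-KO larvae, with 9.43% (8.46 to 10.5%) at a crol-KO Crol peak and 9.13% (8.18 to 10.2%) at a crol-KO Cg peak.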

How the data were processed

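Per the labels and the study's methods, the authors trimmed reads (Trim Galore 0.6.5), aligned them to dm3 (Bowtie2 2.3.5), removed duplicates (SAMtools 1.13), pooled replicates and called narrow peaks with MACS2 2.2.5 (q 0.05, reads extended to 300 bp). The deposited lists give a score, a fold enrichment over the local background, −log10 p and −log10 q (q-value), and a summit offset. Peak numbers skipped in the lists (342 in S2 Crol, 357 in WT Cg, 332 in WT Crol, 335 in crol-KO Crol) were not analysed here. A place said to lack larval Crol lacks a peak in the deposited list. Binding at a skipped or uncalled peak was not tested. Peaks were matched with Python 3.11.15, numpy 2.4.6 and pandas 2.3.3, and intervals came from scipy 1.17.1, with the matching checked on simulated lists. Read pileups were worked out from the deposited fold enrichment and −log10 p by trying whole numbers only. For 100% of peaks a whole number gave −log10 p to within 0.1%. For the largest pileups some whole number always comes this close, so the match is no check on them. Named peaks were the highest by fold enrichment in each class. Positions are dm3, 1-based. Genes and sequences were not assigned, since no dm3 annotation was used here. The rule and the classes were chosen with earlier results of these data known. Alternatives changed the overlap, window, threshold, list length and sequences.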

Additional observations from a re-analysis of the deposited data

Results flagged for a closer look

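Peaks outside the 6 chromosome arms were left out of the comparison, and they too held shared sites. On the heterochromatic sequences of dm3, 30 of 46 S2 Crol peaks (65.2%, exact 95% interval 49.8 to 78.6%) overlapped a WT Cg peak, and 30 of 43 WT Cg peaks (69.8%, 53.9 to 82.8%) overlapped an S2 Crol peak. Median fold enrichment there was 4.15 in S2 Crol and 3.71 in WT Cg.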

How the results depend on the processing

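Of 30 values recomputed, 8 stayed within the 95% interval of the value reported and 22 did not. With all sequences in the lists every one of the 5 results stayed within it. The share of S2 Crol peaks with WT Cg was 46.5% when 50% of both peaks had to overlap, 67.5% when peaks within 1000 bp counted as shared and 53.8% with 200 bp on either side of each summit. The share of WT Cg peaks with S2 Crol was 49.9%, 71.8% and 57.7% under these 3 settings, 70.2% at a −log10 q of at least 5 and 60.7% for the 5000 strongest peaks of each list. The median summit distance was 36, 90 and 36 bp under the first 3 and 39 bp for the 5000 strongest. The share of S2 Crol peaks with Cg whose every Cg peak lacked WT Crol was 15.1%, 8.89% and 14.4% under the first 3, 12.5% at a −log10 q of at least 5 and 21.1% for the 5000 strongest. The share of WT Cg peaks without WT Crol that had S2 Crol was 34.5%, 63.6% and 44.4% under the first 3, 64.5% at a −log10 q of at least 5 and 43.3% for the 5000 strongest. Each setting also changes which Cg peaks count as lacking WT Crol, by its own construction. The number of WT Cg peaks lacking it was 1955 under 50% overlap, 876 within 1000 bp and 1154 as reported. Read within deciles at 1 decile mix, a comparison added after the data were seen, the share of WT Cg peaks with S2 Crol was 6.46 percentage points higher without than with WT Crol as reported. The difference was 1.14 points within 1000 bp, and it reversed to -2.93 points under 50% overlap, -4.01 with 200 bp on either side of each summit and -14.9 for the 5000 strongest. The cause was not tested.

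No paired analysis was possible because each list was called on reads pooled over both libraries of its group, and for the same reason no single library was left out. Depth limits the weak sites, where the summits stand on the fewest reads.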
